A study of Mus musculus with 17 samples.

Results

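Apolipoproteins and the lipase and receptors that handle them were followed in cortical microvessels through 9 genes: Apoe, Apod, Clu, Lpl, Lrp1, Lrp8, Vldlr, Scarb1 and Ager. These were chosen by name for their function, though earlier results of these data were known. They are 9 of the 42687 genes in the count table. All 9 had enough reads to be among the 18753 genes tested.

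RNA was sequenced from microvessels of the cortex of mice aged 10 to 11 months, either wild type (WT) or APP/PS1, a transgenic model in which amyloid builds up as in Alzheimer's disease. Every mouse received a peptide into the peritoneum, 10 mg/kg every 2 days for 2 weeks, so that no group was untreated. It was either gp91-ds-tat, which inhibits the superoxide-making enzyme NOX2, or sgp91-ds-tat, its control. There were 5 libraries of WT with control peptide, 5 of WT with inhibitor, 2 of APP/PS1 with control peptide and 5 of APP/PS1 with inhibitor. The labels describe the material as endothelial cells, pericytes and astrocytic endfeet, and a protocol speaks of a surgery on one side of the brain. Strain, sex and the promoter of the transgenes are not given in the sources used here, nor is it said that each library is a separate animal. The p-values therefore measure the spread between these libraries.

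In the brain, cholesterol and other lipids travel between cells on particles built around apolipoprotein E and clusterin, which are made largely by astrocytes, while apolipoprotein D is a small lipid carrier of the lipocalin family. Lipoprotein lipase releases fatty acids from the triglycerides of such particles and can also tether them to cells. The particles are taken up by a family of lipoprotein receptors, and at the vessel wall LRP1 is known for carrying amyloid beta out of the brain, while RAGE, the product of Ager, is known for carrying it in.

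Total counts per library ran from 7316503 to 17862965, with a median of 11342154, and 3 counts correspond to 0.173 to 0.389 CPM, which is counts scaled to the library size. As a check of the labels, Prnp was at 1051 ± 228 CPM (SD) over the 7 APP/PS1 libraries and 423 ± 64.6 CPM (SD) over the 10 WT libraries, and each APP/PS1 library was above each WT library. App was at 2596 ± 520 CPM (SD, n = 7) against 1596 ± 278 CPM (SD, n = 10). Its ranges overlapped, with the lowest APP/PS1 library at 1894.5 CPM and the highest WT library at 2227 CPM. Among libraries given the same peptide they did not overlap. Markers of endothelium and pericytes were abundant in each library, with summed levels of 1983 to 3620 and 946 to 1635 CPM, but so were neuronal markers at 2412 to 4091 CPM and oligodendrocyte markers at 1249 to 2289 CPM. Choroid plexus markers ranged from 29.7 to 8110 CPM over the libraries. The libraries thus hold more than the labelled cells, and in bulk RNA a change in the number of cells of a type cannot be told apart from a change in the RNA per cell.

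Levels of different genes can be set side by side only per length, and were taken as CPM per kilobase of exon (RPKM). The length was that of all annotated exons of a gene merged, such as 10478 bases for Lpl. The order of the genes rests on that choice, and other lengths were not tried. Over the 17 libraries Apoe was highest at 275 ± 59.4 RPKM (SD), followed by Apod at 211 ± 129 and Clu at 163 ± 36.2 RPKM. Apoe lay above 99.904% of the tested genes with a known length. Of the lipoprotein receptors, Lrp1 was highest at 69.4 ± 6.17 RPKM, then Lrp8 at 18.0 ± 1.95, Vldlr at 15.1 ± 1.56 and Scarb1 at 6.45 ± 0.788 RPKM. Lpl was at 2.19 ± 0.541 RPKM and Ager was lowest at 0.504 ± 0.164 RPKM.

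The order was the same at most neighbouring positions in each library. The exceptions were Apoe over Apod, which held in 15 of 17 libraries, Apod over Clu, which held in 12 of 17, and Lrp8 over Vldlr, which held in 16 of 17. Within the groups, the ranges of Apod and Clu overlapped in all 4, those of Apoe and Apod in both WT groups, and those of Lrp8 and Vldlr in all but APP/PS1 with inhibitor. Neighbours other than these pairs did not overlap in any group.

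**Figure D1:**
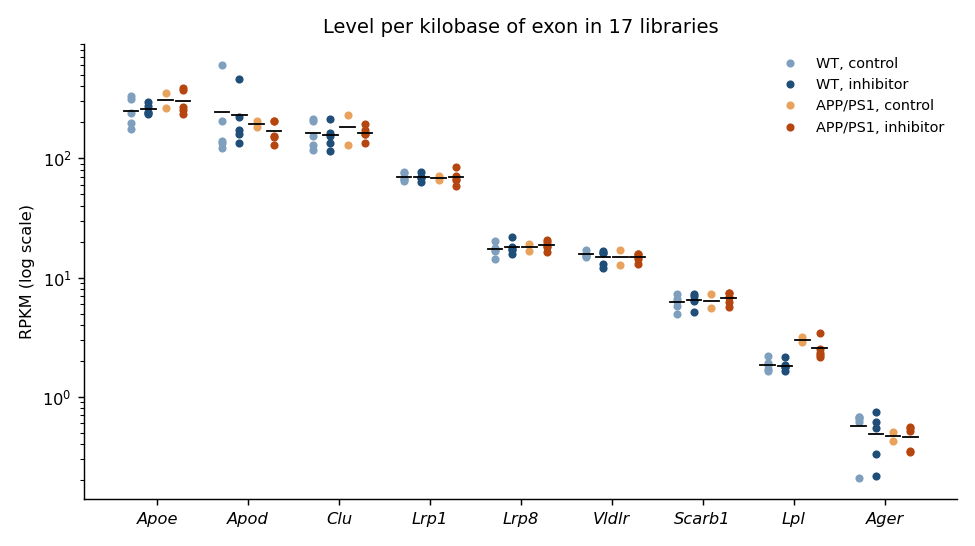
Level of each gene per kilobase of exon (RPKM, log axis) in each of 17 libraries, with 1 point per library and a line at each group mean. The 3 apolipoproteins lie highest, Lrp1 leads the receptors, and Ager lies lowest, while Lpl is the gene whose APP/PS1 points stand above most of its WT points.

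Between genotypes, 1 of the 9 genes passed the test: Lpl, the lipase, was higher in APP/PS1. Over both peptides edgeR called 110 of 18753 genes at an adjusted p under 0.05, which is 0.587% of those tested, and 105 of them, or 0.56%, were higher in APP/PS1. The 9 genes had a median log2 change of 0.05 between APP/PS1 and WT, beside 0.00 over all tested genes. The other 8 did not pass in that comparison, and none of them had an unadjusted p under 0.05, which 6.38% of all tested genes had.

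Lpl (ENSMUSG00000015568, chromosome 8, 68880491 to 68907448, plus strand) was measured in WT libraries with control peptide at 23.0, 19.4, 17.25, 17.8 and 20.2 CPM. In WT with inhibitor it was at 18.5, 22.5, 19.3, 17.1 and 18.6 CPM. In APP/PS1 it was at 30.05 and 33.1 CPM with control peptide, and at 26.6, 23.7, 22.7, 24.6 and 36.3 CPM with inhibitor. With either peptide each APP/PS1 library was above each WT library given the same peptide, as were those of 3.6% of tested genes with control peptide and 0.629% with inhibitor. Across peptides the highest WT library, one given control peptide, stood just above the lowest APP/PS1 library. These levels rested on 132 to 496 counts of Lpl per library.

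The mean of Lpl was 28.1 ± 5.15 CPM (SD) over the 7 APP/PS1 libraries and 19.4 ± 2.02 CPM (SD) over the 10 WT libraries. The log2 change was 0.56 ± 0.10 (SE), a 1.47-fold higher level with a 95% interval of 1.28 to 1.70, and edgeR's adjusted p was 0.00554. Lpl stood at rank 56 of all tested genes by p. With each library left out in turn the log2 change stayed between 0.48 and 0.60, and the adjusted p of edgeR between 0.00332 and 0.0371.

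Within each peptide the difference in Lpl kept its direction but missed the threshold. With control peptide the log2 change was 0.69 ± 0.16 (SE), with an adjusted p of 0.180 by edgeR, where 10 genes or 0.0533% of those tested passed. DESeq2's Wald test gave 0.68 with an adjusted p of 0.0463 for the same comparison. With inhibitor the log2 change was 0.48 ± 0.13 (SE), with an adjusted p of 0.319 by edgeR, where 34 genes or 0.181% passed. Lpl was the only one of the 9 genes with an unadjusted p under 0.05 in either comparison, beside 3.97% of tested genes with control peptide and 3.38% with inhibitor, and DESeq2 called none of the 9 with inhibitor.

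Lpl differed between genotypes together with microglial markers. The 6 markers of microglia summed to 171 to 238 CPM in WT and 205 to 385 CPM in APP/PS1, and 4 of the 6 were called higher in APP/PS1. Of 10 genes known from microglia at plaques, 7 were called higher, with a summed level of 138 to 246 CPM in WT and 191 to 302 CPM in APP/PS1; Cst7 was at 0 in at least 1 library. Of 6 astrocyte markers 1 was called, Gfap, the intermediate filament of reactive astrocytes, whose log2 change was 1.20 (adjusted p 0.000125 by edgeR). With the microglial score as a covariate, an alternative added after seeing the data, the log2 change of Lpl was 0.24, with an adjusted p of 0.436 by edgeR. That score itself differs between the genotypes, so the covariate takes up genotype differences in any gene that moves with it, and calls over all genes fell from 110 to 8; microglia and genotype cannot be told apart by this fit. Within groups, over the 17 libraries, Lpl and the microglial score had a Pearson's r of 0.49 (permutation adjusted p 0.422). Spearman's rho was 0.26 (permutation adjusted p 0.642), and both were adjusted over 126 such relations. Without the 2 libraries farthest from the median score r was 0.29. Other marker lists gave an r at least as strong. The r of Lpl was 0.57 with astrocyte, 0.55 with neuronal and 0.55 with plaque-associated microglial markers (permutation adjusted p 0.274, 0.177 and 0.251). With choroid plexus markers it was -0.55 (permutation adjusted p 0.125). Without the 2 libraries farthest from its median, the astrocyte score gave an r of -0.05.

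**Figure D2:**
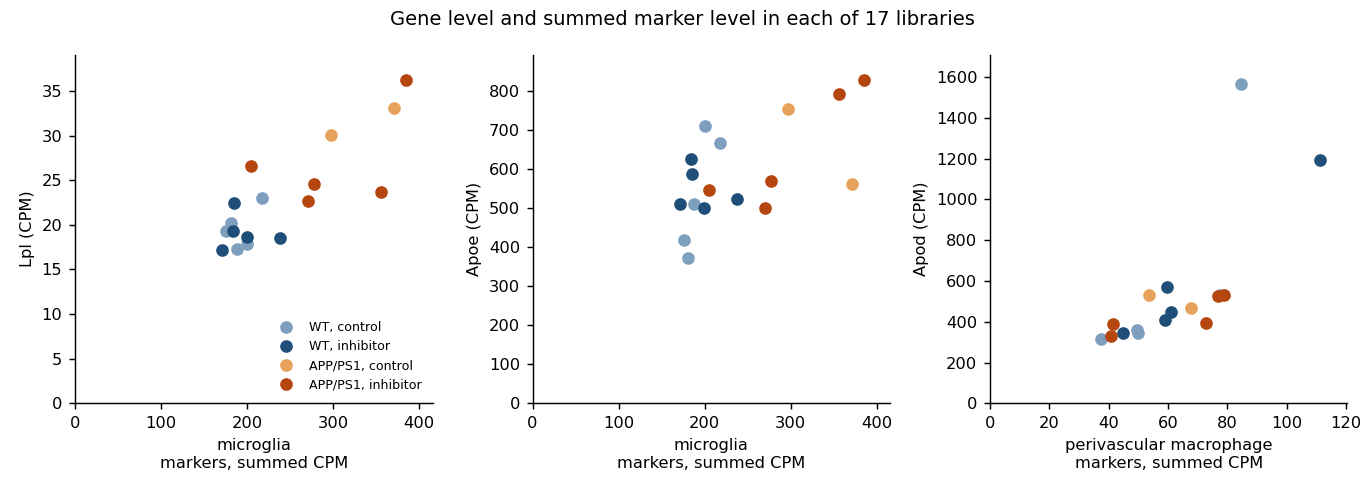
Level of Lpl and Apoe against the summed level of 6 microglial markers, and of Apod against the summed level of perivascular macrophage markers, all in CPM, with 1 point per library coloured by group. In the microglial panels 6 of the 7 APP/PS1 libraries lie to the right of all WT libraries and 1 lies among them, and the 2 libraries highest in Apod have the highest macrophage sums.

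For the inhibitor, differences in Lpl were within the spread between libraries. In WT its mean was 19.2 ± 1.99 CPM (SD, n = 5) with inhibitor and 19.5 ± 2.26 CPM (SD, n = 5) with control peptide, a log2 change of -0.02 with a 95% interval of -0.29 to 0.24. In APP/PS1 it was 26.8 ± 5.50 CPM (SD, n = 5) against 31.6 ± 2.19 CPM (SD, n = 2), a log2 change of -0.24 with an interval of -0.58 to 0.10. The interaction, which is the inhibitor's change in APP/PS1 minus that in WT, was -0.21 for Lpl, with an interval of -0.65 to 0.22.

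Apoe (ENSMUSG00000002985, chromosome 7, 19696109 to 19699188, minus strand), the main apolipoprotein of brain lipoproteins, varied widely within groups. It was at 667, 419.8, 512, 710.4 and 374 CPM in WT with control peptide. In WT with inhibitor it was at 525, 588, 627, 511 and 502 CPM. APP/PS1 libraries had 756 and 562 CPM with control peptide, and 547, 792, 500.0, 569 and 829 CPM with inhibitor. The highest 3 of the 17 libraries were APP/PS1, yet the ranges of the genotypes overlapped.

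The mean of Apoe was 651 ± 136 CPM (SD) over the 7 APP/PS1 libraries and 544 ± 106 CPM (SD) over the 10 WT libraries. The log2 change was 0.26 ± 0.14 (SE), with a 95% interval of -0.03 to 0.54 and an adjusted p of 0.827 by edgeR. That interval leaves room for a level up to 1.46-fold higher. The inhibitor's log2 change in Apoe was 0.04 in WT and -0.02 in APP/PS1.

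Apod (ENSMUSG00000022548, chromosome 16, 31296192 to 31314808, minus strand) had the widest spread of the 9 genes, with a coefficient of variation of 60.9% over the 17 libraries. In WT with control peptide it was at 1567, 316, 346, 533 and 360.1 CPM. In WT with inhibitor it was at 447, 570.3, 1193, 411 and 346 CPM. In APP/PS1 it was at 533 and 468 CPM with control peptide, and at 394, 525, 388, 329.9 and 533 CPM with inhibitor. In each WT group a single library thus stood above all others of the series, and the other 15 lay between 316 and 570.3 CPM.

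The estimates for Apod moved when those libraries were left out, and some turned sign. Over both peptides the log2 change between APP/PS1 and WT was -0.40, with a 95% interval of -1.05 to 0.24 and an adjusted p of 0.934 by edgeR. Without both libraries it was 0.12, and with any 1 library left out it stayed between -0.49 and -0.14. With control peptide it was -0.32, and 0.36 without the first WT library. With inhibitor it was -0.45, and -0.03 without the third WT library. For the inhibitor in WT it was -0.07. It was 0.61 without the first library of WT with control peptide, and -0.49 without the third library of WT with inhibitor. The same libraries had the highest summed levels of perivascular macrophage markers, 84.6 and 111 CPM, where the range over all 17 libraries was 37.6 to 111 CPM. They also had the lowest summed levels of erythroid markers, 0.924 and 1.34 CPM, where the range was 0.924 to 35.2 CPM. The first had the lowest choroid plexus sum as well, 29.7 CPM. The part of any of these cells in the level of Apod was not tested.

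Clu (ENSMUSG00000022037, chromosome 14, 65968483 to 65981547, plus strand) encodes clusterin, also called apolipoprotein J, a secreted chaperone and lipid carrier. It was at 732, 405, 528, 709 and 443 CPM in WT with control peptide, and at 525, 727, 398, 457 and 563 CPM in WT with inhibitor. APP/PS1 libraries had 797 and 448 CPM with control peptide, and 545, 588, 464, 552 and 670.4 CPM with inhibitor. The 2 APP/PS1 libraries with control peptide were nearly as far apart as any pair of the 17. Means were 581 ± 121 CPM (SD) over the 7 APP/PS1 libraries and 549 ± 131 CPM (SD) over the 10 WT libraries, with a log2 change of 0.10 and a 95% interval of -0.21 to 0.41. With control peptide the log2 change of Clu was 0.14, but -0.33 without the first APP/PS1 library and 0.50 without the second.

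**Figure D3:**
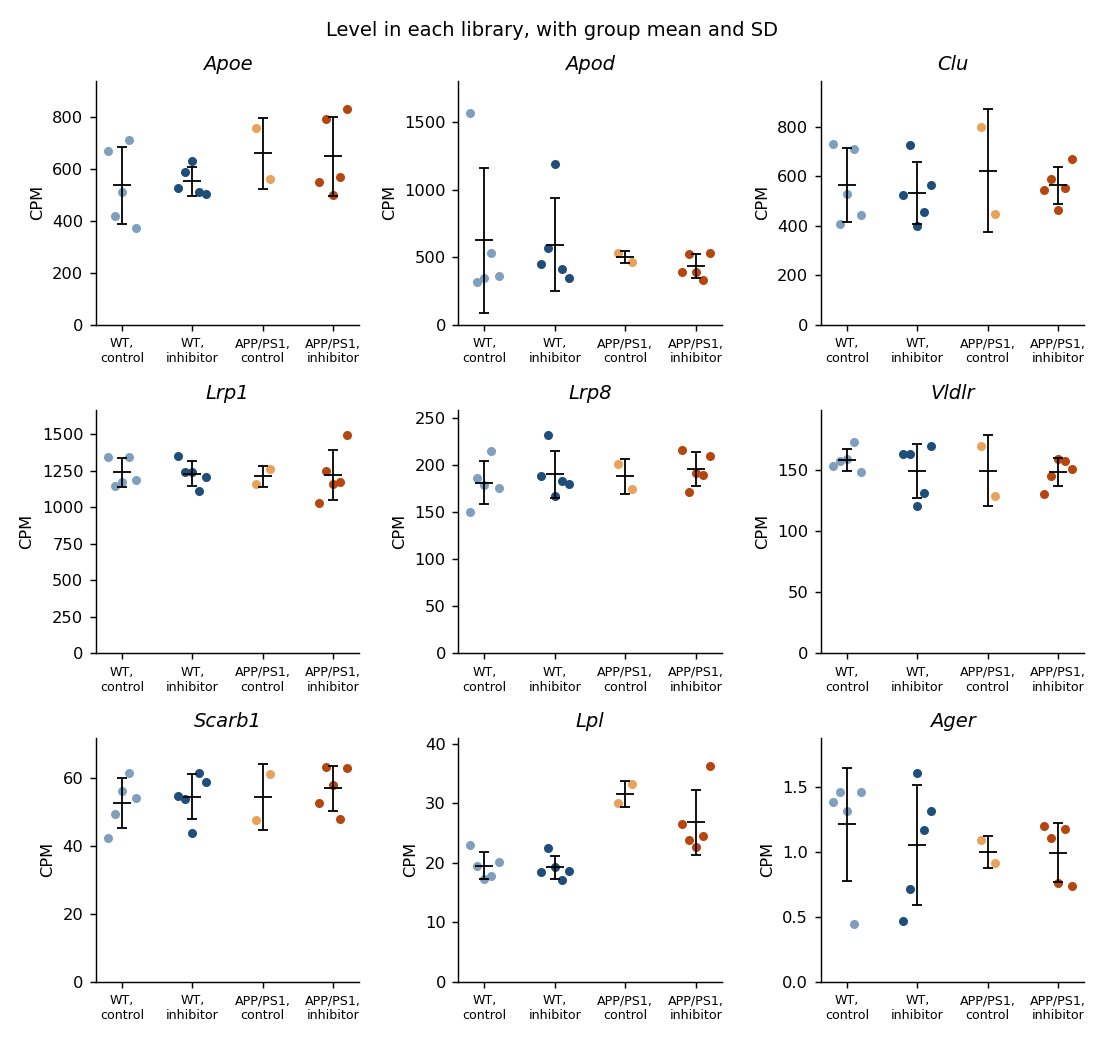
Level of each of the 9 genes (CPM, axes from 0) in each library, grouped by genotype and peptide, with bars at the group mean and SD. Lpl separates the genotypes with either peptide, and Apod has 1 high library in each WT group.

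The 4 lipoprotein receptors had the smallest coefficients of variation of the 9 genes. These were 8.89% for Lrp1, 10.4% for Vldlr, 10.8% for Lrp8 and 12.2% for Scarb1. Lrp1 (ENSMUSG00000040249, chromosome 10, 127538161 to 127621148, minus strand), a large endocytic receptor for apolipoprotein E and amyloid beta, was at 1344, 1147, 1177, 1345 and 1187 CPM in WT with control peptide, and at 1351, 1239.7, 1244, 1115 and 1211 CPM in WT with inhibitor. In APP/PS1 it was at 1163 and 1264 CPM with control peptide, and at 1029.7, 1253, 1162, 1176 and 1496 CPM with inhibitor. The lowest and the highest library were both APP/PS1 with inhibitor. The log2 change of Lrp1 between genotypes was -0.02, with a 95% interval of -0.19 to 0.16, so that a level more than 1.12-fold higher or under 0.874-fold lay outside it.

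Lrp8 (ENSMUSG00000028613, chromosome 4, 107802261 to 107876840, plus strand) and Vldlr (ENSMUSG00000024924, chromosome 19, 27216484 to 27254231, plus strand) encode the paired receptors for reelin, which also bind apolipoprotein E. Lrp8 was at 194 ± 16.9 CPM (SD) over the 7 APP/PS1 libraries and 186 ± 22.9 CPM (SD) over the 10 WT libraries, over 151 to 232 CPM in all, with a log2 change of 0.05 and a 95% interval of -0.12 to 0.21. Vldlr was at 149 ± 15.2 CPM (SD, n = 7) and 154 ± 16.6 CPM (SD, n = 10), over 120.4 to 173 CPM in all, with a log2 change of -0.04 and an interval of -0.20 to 0.13. Their group ranges overlapped in each comparison.

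Scarb1 (ENSMUSG00000037936, chromosome 5, 125277087 to 125341094, minus strand) encodes SR-B1, a scavenger receptor for high density lipoprotein that endothelial cells carry. It was at 56.4 ± 6.86 CPM (SD) over the 7 APP/PS1 libraries and 53.7 ± 6.72 CPM (SD) over the 10 WT libraries, with single libraries between 42.4 and 63.5 CPM. The log2 change was 0.06, with a 95% interval of -0.13 to 0.25.

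Ager (ENSMUSG00000015452, chromosome 17, 34597862 to 34600936, plus strand) had few reads, between 5 and 24 counts per library. It was at 0.998 ± 0.194 CPM (SD) over the 7 APP/PS1 libraries and 1.14 ± 0.432 CPM (SD) over the 10 WT libraries. The log2 change was -0.14 with a 95% interval of -0.69 to 0.42, so that at this depth a level 1.34-fold higher or 0.620-fold could not be told from no change. One WT library with control peptide was at 0.446 CPM, while the other 4 of its group lay between 1.32 and 1.46 CPM.

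None of the 9 genes passed the test for the inhibitor in either genotype, over both genotypes or in the interaction. In each of these 4 comparisons edgeR called 0 of the 9 at the adjusted threshold, 0 had an unadjusted p under 0.05, and DESeq2 called 0. Over all 18753 genes edgeR also called 0, or 0% of those tested, and DESeq2 called 0. The unadjusted p was under 0.05 for 252 genes or 1.34% in WT, 338 or 1.8% in APP/PS1, 396 or 2.11% over both and 158 or 0.843% in the interaction. Each share lies below the 5% that p-values give where nothing differs, so 0 of the 9 genes is not evidence of no effect. For the lipoprotein receptors the intervals in WT were narrow. The inhibitor's log2 change was -0.01 for Lrp1 with an interval of -0.24 to 0.22, and 0.07 for Lrp8 with -0.15 to 0.29. For Vldlr it was -0.08 with an interval of -0.30 to 0.13, and for Scarb1 0.05 with -0.20 to 0.30. In APP/PS1, where the control peptide has 2 libraries, intervals were wider, such as -0.30 to 0.32 for Lrp1 and -0.52 to 0.47 for Apoe.

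**Figure D4:**
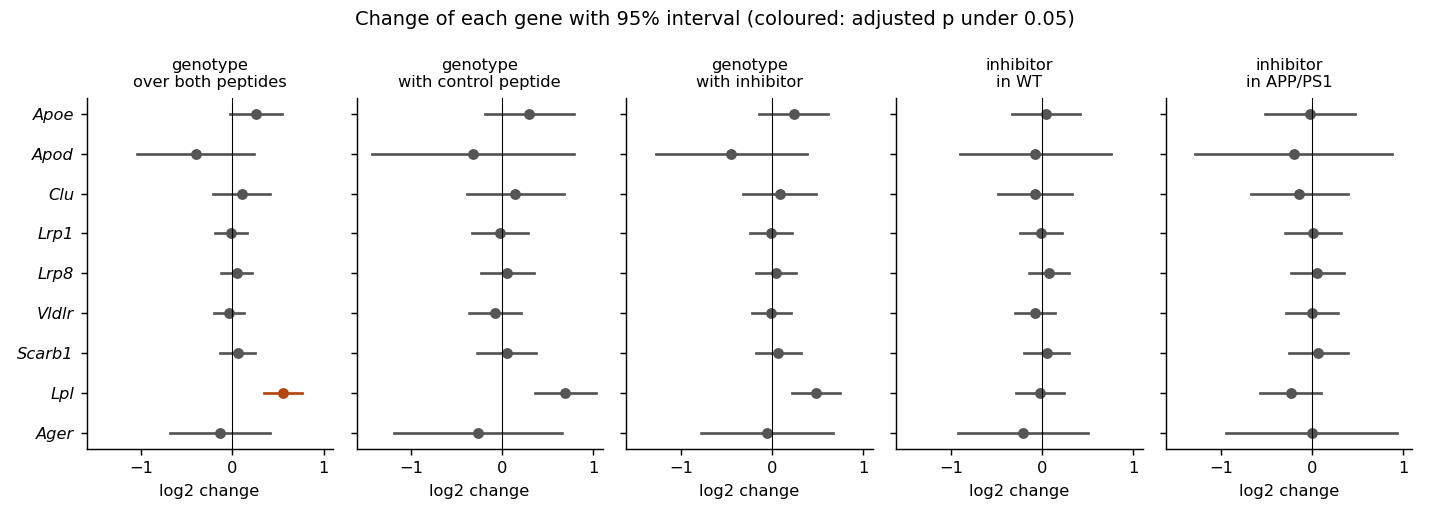
Log2 change of each gene in 5 comparisons with its 95% interval, where a coloured point passed an adjusted p of 0.05 in edgeR. Lpl over both peptides is the coloured point. The intervals of the lipoprotein receptors Lrp1, Lrp8, Vldlr and Scarb1 are the narrowest, while those of Apod and Ager are the widest.

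The wider pathway was read from 7 lists of genes, with 73 of 90 listed genes tested and 1 called between genotypes over both peptides, beside the 0.587% of all tested genes called and the 6.38% with an unadjusted p under 0.05. Of the other apolipoproteins, 4 of 16 were tested, with none called, none with an unadjusted p under 0.05 and a median log2 change of 0.07. The smallest p among them was that of Apol8, at -0.24 with an adjusted p of 0.905 by edgeR. The untested ones include Apoa1 and Apob, the main proteins of high and low density lipoprotein in blood, and Apoc2, the cofactor of lipoprotein lipase.

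All 18 genes listed for other receptors of the LRP family and their regulators were tested, with none called, 2 with an unadjusted p under 0.05 and a median of -0.01. Sorl1, a sorting receptor of the amyloid precursor protein, was at 53.4 RPKM, Lrp10 at 11.9 and Lrp2 at 0.160 RPKM.

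Among genes of scavenger receptors and of lipoprotein transcytosis 10 of 11 were tested. Of these 1 was called higher, Cd68, a lysosomal glycoprotein of macrophages and microglia. Cd68 was at 18.9 ± 4.00 CPM (SD) over the 7 APP/PS1 libraries and 9.90 ± 2.38 CPM (SD) over the 10 WT libraries, a log2 change of 0.95 with an adjusted p of 0.00186 by edgeR. It was also called with inhibitor alone, at 1.02 with an adjusted p of 0.0342 by edgeR, and there the ranges did not overlap. Between the genotypes it moved with the microglial markers given above, and their part in the difference of Cd68 was not tested. The median of this list was 0.13.

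Of the genes of lipoprotein remodelling 9 of 12 were tested, with none called, 2 with an unadjusted p under 0.05 and a median of -0.00. Angptl4, an inhibitor of lipoprotein lipase, had the smallest p. In APP/PS1 it was at 2.17 CPM in the lowest library, 3.90 in the median and 8.84 in the highest, and in WT at 2.98, 5.91 and 49.5 CPM. The log2 change of Angptl4 was -1.57 with an adjusted p of 0.590 by edgeR, and the ranges of the genotypes overlapped. Gpihbp1, which carries the lipase to the lumen of capillaries, was among the 3 that did not pass the filter on low counts.

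None of 19 genes of cholesterol efflux and sterol control and none of 6 genes of reelin signalling was called or had an unadjusted p under 0.05, with medians of 0.01 and 0.07. The smallest p in each was that of Abca7, a lipid transporter, at -0.17 with an adjusted p of 0.791 by edgeR, and of the kinase gene Fyn, at 0.10 with an adjusted p of 0.945. Of the genes for the ligands of RAGE and its signal adaptor, 7 of 8 were tested. EdgeR called none, 1 had an unadjusted p under 0.05, and the median was 0.08. The smallest p was that of S100b, an astrocyte protein, at 13.3 ± 1.75 CPM (SD, n = 7) against 10.03 ± 2.06 CPM (SD, n = 10), a log2 change of 0.46 with an adjusted p of 0.0954 by edgeR, while DESeq2 called it. DESeq2 called no other gene of these lists over both peptides than S100b and Cd68.

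The 9 genes did not vary as a block. After subtracting group means, the closest pair over the 17 libraries was Apoe and Clu, with r = 0.71, then Apoe and Apod with 0.67 and Apoe and Lrp1 with 0.64, and the most opposed was Lrp8 and Ager with r = -0.56. Among 13998 candidate genes, Apod was most like Gstm1 and Selenop, with r = 0.97 for both. Apoe was most like Golph3l at 0.96 and Rab2a at 0.94, and Clu most like Dad1 at 0.94 and Xpr1 at 0.92. Lpl had the weakest nearest neighbours, Igfbp6 at 0.85 and Shh at 0.84. Lrp1 was nearest to Extl3 and Abca3, Lrp8 to Tnfrsf25 and Lman2l, Vldlr to Atp10b and Cntn1, Scarb1 to Mtss1 and Trp53rka, and Ager to Trub1 and Zgrf1, with r between 0.89 and 0.93. These values are descriptions: each is the highest of many, and the genes of a library share its depth and cell makeup.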

How the data were processed

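The authors deposited raw counts per Ensembl gene for the 17 libraries, made from stranded libraries after depletion of ribosomal RNA, per the labels' protocols. The submitters' processing notes name cutadapt, STAR, HTSeq, DESeq2, mm10 and GRCh37, with no role for each; the annotation and the handling of strand and of shared reads are not given in the sources used here. The table held 20 more columns of values that matched no sample, and they were not used. Of 42687 IDs, 42250 were given a symbol from GENCODE vM21 and 437 had none; positions and exon lengths are those of that annotation on GRCm38. No exon of the 9 genes overlapped another gene's.

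Counts were fitted in R 4.3.3 with edgeR 4.0.16 (filterByExpr, TMM, quasi-likelihood F test, Benjamini-Hochberg over all 18753 tested genes, threshold 0.05, two-sided). A model with 1 mean per group, with 13 residual degrees of freedom, gave the effects within a peptide or genotype and the interaction, and an additive model gave those over both. CPM and RPKM use TMM-scaled library sizes, and log2 levels a prior count of 2. The comparisons share libraries. DESeq2 1.42.0 was an alternative, with other filters, size factors, the 2 groups alone, libraries left out and, added after seeing the data, marker scores as covariates. The fits were tested on simulated counts, drawn independently for each gene around a common mean profile. Such counts lack the cell makeup that genes of a real library share, so that test does not cover it. No 2 libraries were identical, and pairs within groups differed by a chi-square per degree of freedom of 5.04 to 84.3. Counting floors cover counting error only.

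The 9 genes and all lists were chosen with earlier results of these data known. Named were the 9 genes in each comparison, in each list each gene with an adjusted p under 0.05 or else, where it can be reported, that with the smallest p for genotype over both peptides, and the 2 genes most like each of the 9 by Pearson's r among genes of at least 1 CPM, leaving out those with Gm or Rik names. Further genes of the lists were named for their role or level after their values were seen. Some genes of the lists are not reported here by name.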

Additional observations from a re-analysis of the deposited data

Results flagged for a closer look

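Of 27 combinations of gene and group with 5 libraries, 4 held a library that stood apart by Dixon's test at the 95% level (critical ratio 0.71), where chance alone gives about 1.35. Apod did so in both WT groups, at 1567 CPM in the first library with control peptide, where the others lay between 316 and 533 CPM, and at 1193 CPM in the third library with inhibitor, where the others lay between 346 and 570.3 CPM. Lpl was at 36.3 CPM in the fifth library of APP/PS1 with inhibitor, with the others between 22.7 and 26.6 CPM. Without that library the log2 change of Lpl between genotypes given inhibitor was 0.34 in place of 0.48. Ager was at 0.446 CPM in the fourth library of WT with control peptide, with the others between 1.32 and 1.46 CPM.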

How the results depend on the processing

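Lpl over both peptides kept its direction in each alternative and its call in all but the microglial covariate (0.24). Over all comparisons, some log2 changes of the 9 genes that were not called turned sign by at least their SE. With 1 library left out 11 did so, while 742 log2 changes stayed within their SE or kept their call. In the other settings 15 did so, beside 449. The cause was not tested. For Lrp1 and Clu the range with 1 library left out held both signs in each comparison. Between genotypes over both peptides it was -0.07 to 0.01 for Lrp1 and -0.02 to 0.19 for Clu.

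With the microglial covariate 0 of the 9 genes were called over both peptides, and 1, 2 and 8 genes of the table with control peptide, with inhibitor and over both. Under it the log2 changes between genotypes turned, in the same order, to -0.32, -0.26 and -0.27 for Apoe, -0.33, -0.28 and -0.29 for Clu, -0.26, -0.15 and -0.17 for Scarb1, and 0.56, 0.51 and 0.52 for Ager; Apod kept its sign but moved to -1.11, -1.13 and -1.13, and Lrp1 to -0.48, -0.33 and -0.36. DESeq2 called 1 of the 9 genes, Lpl, with control peptide, and 45, 61 and 182 genes of the table. Without both libraries high in Apod, Apod was at 0.36 with control peptide and 0.12 over both, and Clu at 0.12 for the inhibitor in WT.

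Leaving out 1 library at a time, genes called ranged from 4 to 17 with control peptide, 15 to 38 with inhibitor and 70 to 125 over both peptides, the last lowest without the second APP/PS1 library with control peptide. Apod ranged from -0.49 to 0.36 between genotypes with control peptide, -0.49 to 0.61 for inhibitor in WT, and -0.38 to 0.27 for inhibitor over both genotypes. With control peptide Clu ranged from -0.33 to 0.50, Vldlr from -0.30 to 0.10 and Scarb1 from -0.14 to 0.22. For inhibitor in APP/PS1 Clu ranged from -0.50 to 0.33, Vldlr from -0.19 to 0.21 and Scarb1 from -0.11 to 0.26, and in the interaction Clu from -0.42 to 0.41 and Vldlr from -0.11 to 0.29. The extremes of Clu, Vldlr and Scarb1 came from leaving out 1 of the 2 APP/PS1 libraries with control peptide, after which the lone library is assumed to vary like the others.

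No paired analysis was possible because the replicate numbers were given in accession order and pair no libraries. Depth limits Ager, at 5 to 24 counts per library.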

Other observations

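The levels of the 9 genes were set against the mean log2 levels of 14 lists of cell type markers, each after subtracting group means, in 126 relations over 17 libraries, with p from 100000 permutations within groups. Apod and perivascular macrophage markers gave the only relation with both adjusted p-values under 0.05: Pearson's r was 0.81 (permutation adjusted p 0.00126, raw 1e-05, the smallest these permutations can give) and Spearman's rho 0.86 (permutation adjusted p 0.0063). Without the 2 libraries farthest from the median of the marker score r was 0.73. Those were picked by marker score and not by Apod. They included the third library of WT with inhibitor. The first of WT with control peptide, the library highest in Apod, was kept. Lrp1 and microglial markers gave r = 0.90 (permutation adjusted p 0.0120) and rho = 0.80 (permutation adjusted p 0.0735), with r = 0.78 without the 2 farthest libraries. This was not particular to microglia. Lrp1 and oligodendrocyte precursor markers gave r = 0.81 (permutation adjusted p 0.0365) and rho = 0.71 (permutation adjusted p 0.101). With astrocyte, pericyte and endothelial markers the r of Lrp1 was 0.76, 0.74 and 0.72 (permutation adjusted p 0.0842, 0.0622 and 0.0767).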
